A study of Mus musculus with 3 samples.

Results

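The 9 genes described here encode transcription factors that mark subtypes of retinal bipolar cells, namely Vsx1, Lhx3, Lhx4, Isl1, Irx6, Bhlhe22, Bhlhe23, Fezf2 and Sebox. They were chosen by name from the 18545 genes in the expression matrix, and each was followed across the 6 clusters that hold bipolar cells (clusters 2, 3, 6, 7, 8 and 10 of the study's numbering) in each of 3 single-cell libraries. These clusters hold 4912 of the 15242 cells.

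Bipolar cells carry the photoreceptor signal to the inner retina. ON types, including the rod bipolar cell, sense glutamate through the metabotropic receptor Grm6 and the channel Trpm1 and depolarise to light, whereas OFF cone bipolar types use ionotropic receptors such as Grik1. Type identity is laid down by combinations of homeodomain, LIM-homeodomain and basic helix-loop-helix factors that act downstream of shared regulators such as Otx2. Isl1 is needed for rod and ON cone bipolar cells, Bhlhe23 for the maturation of rod bipolar cells, Vsx1 for late OFF cone bipolar genes and for 1 ON type, and Bhlhe22 and Irx6 for particular OFF types.

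The promoters of 4 of the factors are given because the expression patterns below turn on these genes: Isl1, Bhlhe23 and Sebox share their highest cluster, and Vsx1 marks clusters 6 and 10. RefSeq promoter windows of the GRCm38.p6 build, each running from 250 bases before to 50 after a gene's start, were found for 7 of the 9 factors (8 windows). The windows are written 5′ to 3′ on the gene's strand. Capitals mark TAATCC, the core bound by Otx2 and Crx.

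Isl1 (chr13:116309639-116309938, minus strand): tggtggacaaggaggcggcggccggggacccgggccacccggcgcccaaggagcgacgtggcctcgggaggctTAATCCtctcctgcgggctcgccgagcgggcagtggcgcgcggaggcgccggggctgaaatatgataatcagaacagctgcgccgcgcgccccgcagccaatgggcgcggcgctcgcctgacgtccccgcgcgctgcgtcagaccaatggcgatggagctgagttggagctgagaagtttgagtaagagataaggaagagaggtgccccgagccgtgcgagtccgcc

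Bhlhe23 (chr2:180776851-180777150, minus strand): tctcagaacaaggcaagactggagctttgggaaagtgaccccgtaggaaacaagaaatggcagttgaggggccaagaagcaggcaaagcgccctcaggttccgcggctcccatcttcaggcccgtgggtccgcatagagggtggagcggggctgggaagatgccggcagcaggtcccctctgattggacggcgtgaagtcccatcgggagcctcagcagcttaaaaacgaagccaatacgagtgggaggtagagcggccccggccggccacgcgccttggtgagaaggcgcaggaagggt

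Sebox (chr11:78503263-78503562, plus strand): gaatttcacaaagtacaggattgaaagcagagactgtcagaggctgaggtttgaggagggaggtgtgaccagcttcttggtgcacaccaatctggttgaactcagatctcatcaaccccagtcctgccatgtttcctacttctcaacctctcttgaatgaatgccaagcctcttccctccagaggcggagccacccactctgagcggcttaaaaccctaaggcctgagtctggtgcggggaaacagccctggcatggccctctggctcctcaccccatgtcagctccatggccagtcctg

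Vsx1 (chr2:150689088-150689387, minus strand): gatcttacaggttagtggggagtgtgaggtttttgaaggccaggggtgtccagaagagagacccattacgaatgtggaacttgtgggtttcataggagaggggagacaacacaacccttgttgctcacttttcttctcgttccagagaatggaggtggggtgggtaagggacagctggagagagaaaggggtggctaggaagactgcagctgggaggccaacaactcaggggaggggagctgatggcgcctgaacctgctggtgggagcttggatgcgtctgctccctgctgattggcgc

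TAATCC was looked for on both strands and stood in 1 of the 8 windows, that of Isl1, where it begins at base 74. It stood in 7.06% of all 32851 windows of this length. TAATTA, a core bound by many homeodomain proteins, and CATATG, an E-box bound by basic helix-loop-helix factors, were in none of the 8 windows, and in 5.29% and 3.91% of all windows. A missing match says nothing of binding elsewhere. The Isl1 gene lies on chromosome 13 (116298270 to 116309688), Bhlhe23 on chromosome 2 (180774381 to 180776900), Sebox on chromosome 11 (78503513 to 78505081) and Vsx1 on chromosome 2 (150680702 to 150689137), in the same build, which the files' mm10 matches.

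Retinas came from mice aged 8 weeks, on the C57BL/6J strain and kept in the dark for life. WT mice were 2 females and 2 males on the base chow, rd10-vehicle mice were females of the rd10 retinal degeneration line on the same chow, and rd10-TMB mice were rd10 females that ate tamsulosin, metoprolol and bromocriptine in it. Each group was 1 library of pooled retinas, 1 from each of 4 mice per the labels, although the study's methods give a smaller number for the rd10 pools. There is therefore no replicate, no difference between libraries was tested, and group, pool, library and (against WT) sex cannot be told apart. The rd10 libraries are called vehicle and TMB below. A level is the summed UMI count of a gene in a cluster and library per 1000000 UMIs of that cluster and library (CPM), with an exact 95% Poisson interval that covers counting error only, and a ratio is between such levels.

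The bipolar clusters held 1480 WT, 1844 vehicle and 1588 TMB cells, with medians of 4428, 3380 and 4051 UMIs per cell. Cluster 2 carried all 11 rod bipolar markers and is called rod bipolar-like. Cluster 3 carried 13 of 16 ON cone bipolar markers (ON cone bipolar-like). Cluster 8 carried 9 of 14 OFF cone bipolar markers and cluster 7 carried 5, with Grik1 and Otor among its 10 leading genes (both OFF cone bipolar-like), although cluster 7 also had 6 of the 16 ON markers, without Grm6, Trpm1 or Isl1. Clusters 6 and 10 had 9 and 10 of the ON markers together with 5 and 4 of 9 amacrine markers, and are called by number. Cells with 2 or more UMIs of a list of 11 amacrine genes, called amacrine-marked below, made up 99 of the 239 WT cells of cluster 10 against 10 of 107 in vehicle and 20 of 123 in TMB, and 42 of the 177 WT cells of cluster 6 against 3 of 180 and 2 of 152. Levels of these clusters are therefore also given without them. Isl1, Sebox, Bhlhe23, Vsx1, Lhx3 and Irx6 are themselves in these lists and every gene could shape the clusters, so a level that differs between clusters is a description. Across libraries, 25 cell barcodes occurred in more than 1, of which 11 were in a bipolar cluster.

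Sebox was close to a label of the rod bipolar-like cluster. Its level there was 901 CPM in WT (interval 859 to 944), 810 in vehicle (776 to 845) and 831 in TMB (796 to 866), against at most 28.0 in any other bipolar cluster. Cluster 2 held 94.6% of all Sebox UMIs in the dataset. The WT interval stood apart from that of vehicle, by a ratio of 1.11-fold, and the intervals of the 2 rd10 libraries overlapped.

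Isl1, the LIM-homeodomain factor of ON cells, followed the ON clusters as a gradient. In cluster 2 it reached 1369 CPM in WT (1318 to 1422), 1423 in vehicle (1378 to 1470) and 1501 in TMB (1456 to 1548). In cluster 3 the levels were 588, 662 and 640 CPM in the same order, and in the OFF-like clusters 7 and 8 they lay between 29.8 and 69.6 CPM in every library. Cluster 10 took the next place after cluster 2 in both rd10 libraries (1058 and 918 CPM) but stood below cluster 3 in WT (535 CPM). Without the amacrine-marked cells it was second in every library, at 1111, 1200 and 1230 CPM against 610, 665 and 640 in cluster 3.

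Bhlhe23, a basic helix-loop-helix factor, shared its highest cluster with Isl1 and Sebox. It was at 268 CPM in WT, 236 in vehicle and 261 in TMB in cluster 2, and at 169, 115 and 139 in cluster 3. Cluster 10 had 96.6, 168 and 130 CPM, or 201, 191 and 171 without the amacrine-marked cells, and clusters 6 and 7 stayed at or below 20.2 CPM. The clusters with high Isl1 were thus not all high in Bhlhe23, since cluster 6 had 378 CPM or more of Isl1 in every library.

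Lhx4, a LIM-homeodomain factor, was high in ON-like and OFF-like cone bipolar clusters. The OFF-like cluster 7 was highest with 729 CPM in WT (656 to 807), 793 in vehicle (712 to 880) and 689 in TMB (607 to 778). Cluster 8 followed at 397, 585 and 440 CPM, and the ON-like cluster 3 at 398, 488 and 454, and the intervals of these neighbours overlapped in every library. Rod bipolar-like cells had 97.2 to 107 CPM, and clusters 6 and 10 had 24.9 or less.

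Fezf2, a zinc finger factor, was shared by the OFF-like clusters. It read 201 CPM in WT (163 to 244), 190 in vehicle (152 to 235) and 184 in TMB (143 to 233) in cluster 7, and 214 (179 to 254), 179 (145 to 218) and 165 (134 to 199) in cluster 8. The intervals of these 2 clusters overlapped in every library, so no order between them was resolved.

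Irx6, an Iroquois homeodomain factor, and Bhlhe22 parted the OFF-like clusters. Irx6 was at 583 CPM in WT (524 to 647), 479 in vehicle (423 to 541) and 437 in TMB (387 to 491) in cluster 8, but gave 0, 2 and 1 UMIs in cluster 7. Bhlhe22 was at 147, 141 and 130 CPM in cluster 8 and at 9.93 CPM or less in cluster 7. Cluster 7 was therefore Lhx4 and Fezf2 with almost no Irx6, and cluster 8 had all 4 factors.

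Lhx3, the paralogue of Lhx4, was read in few molecules. Cluster 8 held 80.8 CPM in WT, 76.8 in vehicle and 69.6 in TMB, and cluster 10 held 47.9, 127 and 99.2. Cluster 7 gave 0 UMIs in all 3 libraries, and a count of 0 there allows up to 5.96, 6.72 and 8.01 CPM at 3 UMIs, while the exact intervals used for the other levels end at 7.33, 8.26 and 9.84 CPM. Its highest cluster was 8 in WT and 10 in both rd10 libraries, with overlapping intervals in each. Cluster 10 was highest in every library without the amacrine-marked cells, at 94.8, 142.9 and 133 CPM, and its interval overlapped that of cluster 8 in WT and vehicle but not in TMB.

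Vsx1, a paired-type homeodomain factor, was highest outside the clusters named OFF-like. Cluster 6 had 486 CPM in WT (442 to 534), 720 in vehicle (658 to 787) and 716 in TMB (654 to 781). Cluster 10 had 367 (335 to 402), 704 (620 to 796) and 477 (420 to 540). The OFF-like cluster 8 stood at 77.5, 64.0 and 64.9 CPM, and cluster 7 gave at most 1 UMI in a library. The intervals of clusters 6 and 10 overlapped in vehicle but not in WT or TMB. The order turned in WT and vehicle without the amacrine-marked cells, with 675, 731 and 728 CPM in cluster 6 against 785, 762 and 639 in cluster 10, and the intervals overlapped in every library.

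**Figure D1:**
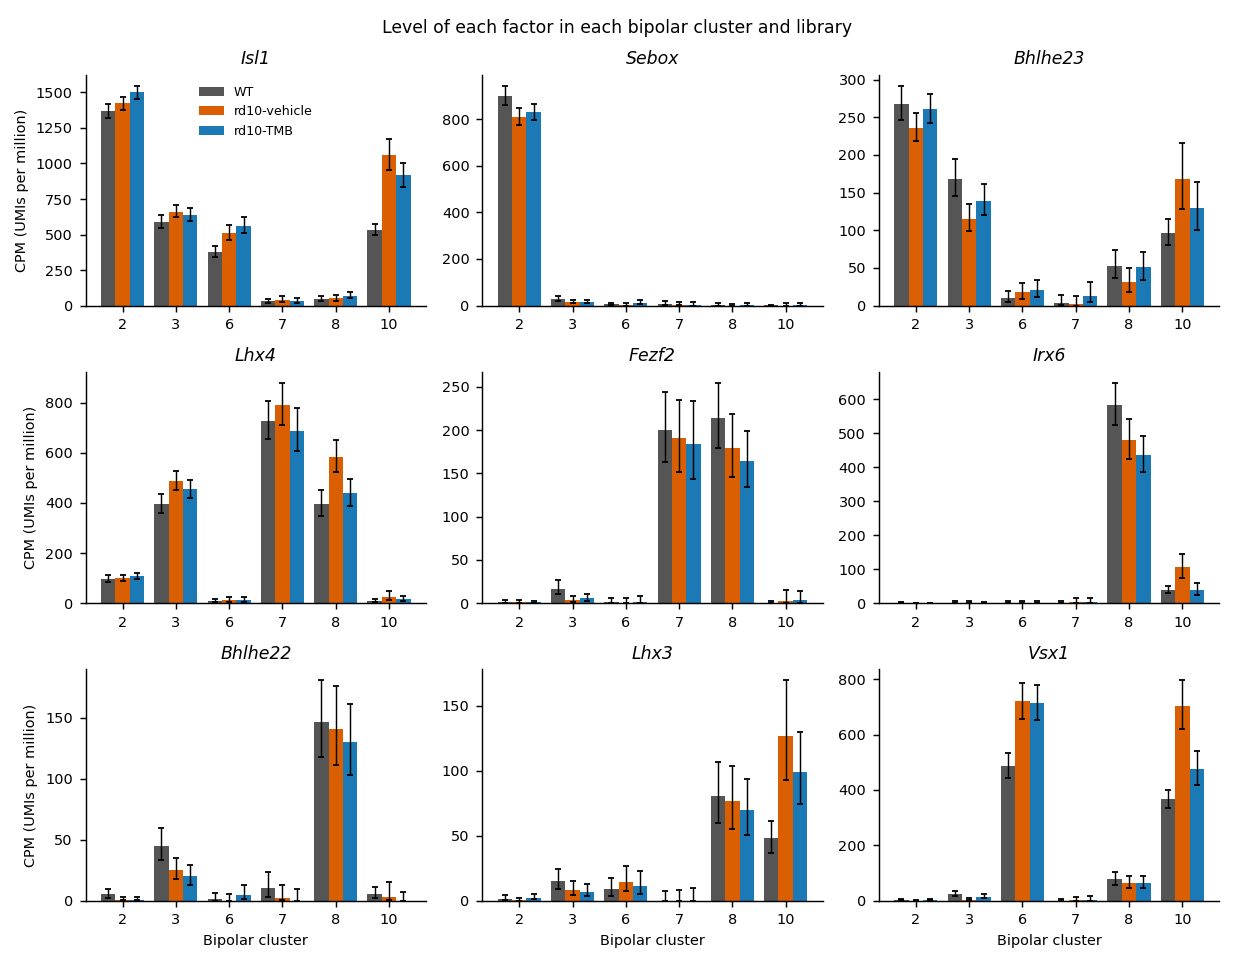
Level of each factor (y axis, CPM) in the 6 bipolar clusters (x axis) in the WT, rd10-vehicle and rd10-TMB libraries. Bars are summed levels and whiskers are exact 95% Poisson intervals. Sebox stands almost alone in cluster 2 and Irx6 in cluster 8, whereas Lhx4 is high in clusters 3, 7 and 8.

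In all, 7 of the 9 factors had the same highest cluster in the 3 libraries, and the 2 exceptions were Fezf2 and Lhx3, each with overlapping intervals at the top. The count was also 7 without the amacrine-marked cells, with Fezf2 and Vsx1 as the exceptions. Bipolar clusters held 75.1% to 96.2% of all UMIs of 8 factors. Bhlhe22 was the exception with 25.0%. Its highest level was in cluster 5 (207 CPM, 32.4% of its UMIs), and it reached 123 CPM in cluster 9. In these clusters 9 of the 11 amacrine genes were at 20 CPM or more. Lhx4 was also read at 62.0 CPM in cluster 4, where the cone list summed to 33532 CPM, and Isl1 at 267 CPM in the 43 cells of cluster 16, where all 6 retinal ganglion genes were at 20 CPM or more.

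The share of cells with at least 1 UMI was compared after each cell was thinned to 1000 UMIs, since depth differed between libraries. This left out 191 of the 4912 cells as too shallow. Isl1 was then found in 72.1%, 74.1% and 74.4% of rod bipolar-like cells of WT, vehicle and TMB (96.8%, 96.6% and 97.1% without thinning), and Sebox in 58.1%, 53.0% and 51.4% (94.8%, 89.6% and 92.4%). In cluster 8, Irx6 was found in 46.1%, 36.2% and 32.4% of thinned cells (87.7%, 74.5% and 78.6% without thinning). These shares reflect the sampling of scarce transcripts and are no count of expressing cells.

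The shares of Fezf2 in cluster 8 had intervals that overlapped between libraries. It was found in 27.3% of thinned WT cells (exact binomial interval 19.8 to 35.9), 14.8% of vehicle cells (9.49 to 21.5) and 13.7% of TMB cells (8.43 to 20.5), against 57.7%, 40.9% and 49.3% without thinning. In cluster 7 the same gene was found in 17.0%, 17.3% and 17.6% of thinned cells. At 2000 UMIs per cell the shares in cluster 8 were 37.3%, 28.5% and 26.9%, and the intervals overlapped there and for its summed levels too. The summed level of thinned cells gave log2 ratios of −0.71 (−1.51 to 0.03) for vehicle over WT on 63 UMIs and −0.91 (−1.78 to −0.13) for TMB over WT on 58, both past 1.5-fold, whereas all UMIs gave −0.25 (−0.65 to 0.13) and −0.38 (−0.77 to 0.00).

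In cluster 10, Isl1 was found in 41.0% of thinned WT cells (34.7 to 47.5), 65.7% of vehicle cells (55.8 to 74.7) and 55.8% of TMB cells (46.5 to 64.9), and without thinning in 60.7%, 89.7% and 79.7%. The share of amacrine-marked cells ran the other way, at 41.4% in WT, 9.35% in vehicle and 16.3% in TMB. In the other cells, a comparison added after the data were seen, Isl1 was found in 65.7% (57.2 to 73.5), 71.9% (61.8 to 80.6) and 67.0% (56.9 to 76.1) of thinned cells, with intervals that overlapped. As a background, cluster 1, where the rod list summed to 51374 CPM, had Isl1 in 1.99%, 2.25% and 1.05% of thinned cells. Each of the other 8 factors was in 2.40% of thinned cells or fewer there in every library.

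**Figure D2:**
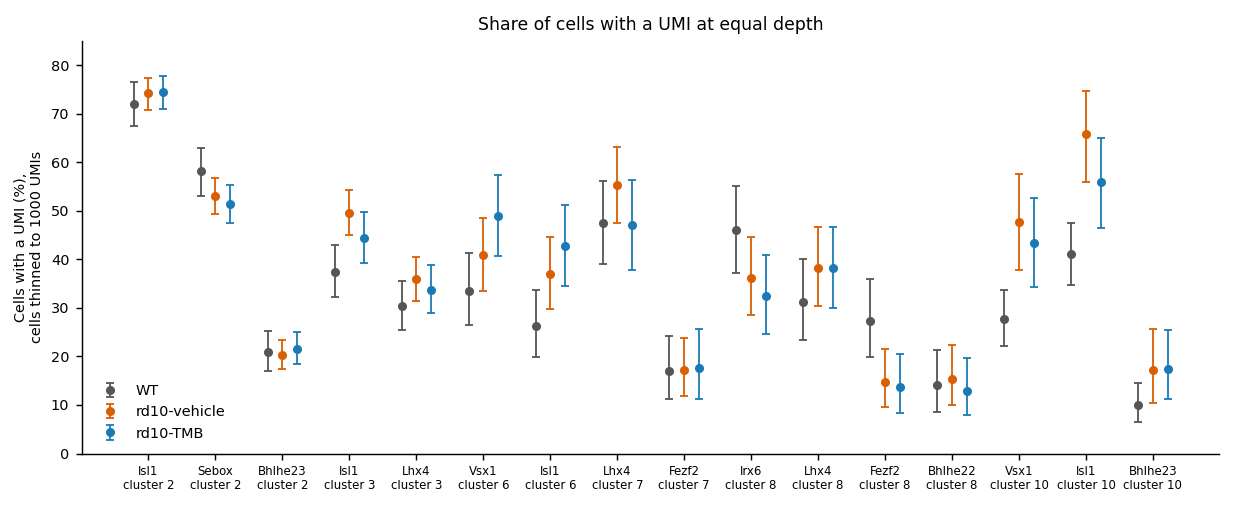
Percent of cells with at least 1 UMI of a factor (y axis) after thinning each cell to 1000 UMIs, for 16 pairs of factor and cluster (x axis) in the 3 libraries, with exact 95% binomial intervals. Isl1 in cluster 10 stands at 41.0% in WT and 65.7% in vehicle, with intervals that do not meet, and 99 of the 239 WT and 10 of the 107 vehicle cells of that cluster were amacrine-marked.

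Which factors met in the same cell was read over the 3 libraries together, first without thinning, where a deeper cell shows any gene more often. In cluster 2, 1591 of 1635 cells with Sebox also had Isl1, as did 133 of 146 without Sebox. In cluster 7, 155 of 179 cells with Fezf2 had Lhx4, against 205 of 270 without Fezf2. In cluster 8, 270 of 330 cells with Lhx4 had Irx6, against 65 of 89 without Lhx4.

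At 1000 UMIs per cell these shares lay closer together. Isl1 was then in 72.9% of cluster 2 cells with Sebox and 74.8% of those without, Lhx4 in 56.8% of cluster 7 cells with Fezf2 and 49.2% of those without, and Irx6 in 36.0% of cluster 8 cells with Lhx4 and 39.1% of those without.

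Vsx1 and Isl1 were both read in many cells of clusters 6 and 10. In cluster 10, 281 of 289 cells with Vsx1 had Isl1, against 58 of 180 without, and at 1000 UMIs per cell 69.0% against 39.9%. Without the amacrine-marked cells the thinned shares were 69.8% and 66.1%. In cluster 6, 305 of 375 cells with Vsx1 had Isl1, against 68 of 134 without, but at 1000 UMIs the shares were 34.7% and 35.3%. Without the amacrine-marked cells the shares there were 81.6% and 72.0%, or 35.0% and 41.6% at 1000 UMIs.

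Few cells had both factors in the other cone bipolar clusters. In cluster 8, 11 of 81 cells with Vsx1 had Isl1, against 24 of 338 without Vsx1. In cluster 3, 12 of 27 cells with Vsx1 had Isl1, against 906 of 1258 without. The other 15 cells had Vsx1 without Isl1, and 13 of them were WT cells, none vehicle and 2 TMB. Cells with neither factor made up 91 of 239 WT cells of cluster 10, 10 of 107 vehicle cells and 21 of 123 TMB cells, and of these 89, 7 and 20 were amacrine-marked.

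**Figure D3:**
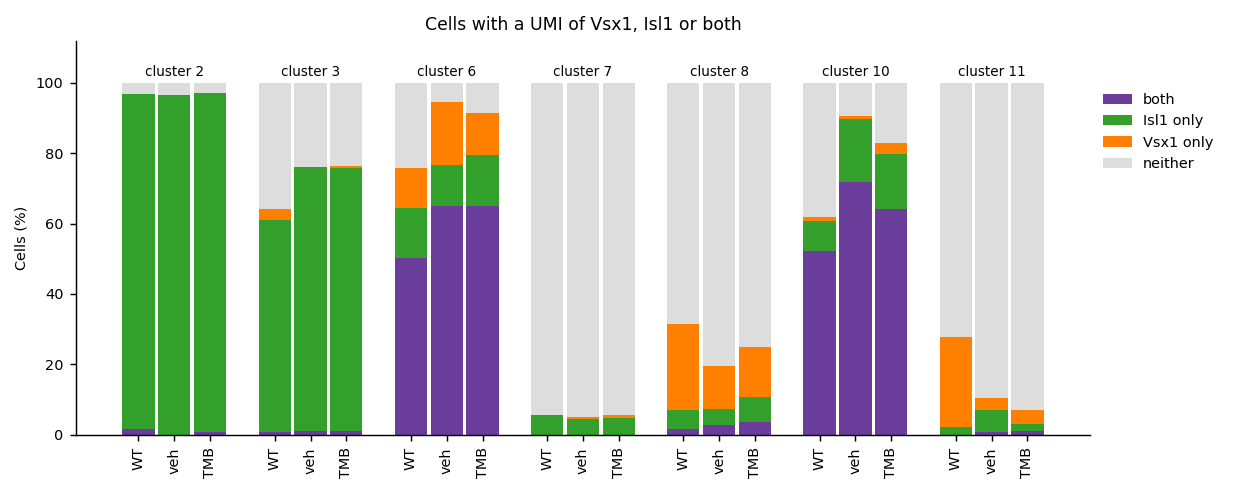
Percent of cells (y axis) with a UMI of Vsx1, of Isl1, of both or of neither, for the 6 bipolar clusters and cluster 11 in each library (WT, veh for vehicle, and TMB), without thinning. Cells with both fill most of clusters 6 and 10 in each library, and the cells with neither in cluster 10 number 91 of 239 in WT, 89 of them amacrine-marked, and 10 of 107 in vehicle, 7 of them amacrine-marked.

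The genes whose pattern was most like each factor's were ranked by Pearson's r of log2(CPM + 1) over the 16 clusters with at least 50 cells, among genes with at least 200 UMIs. These values describe clusters that share libraries. Isl1 was most like Grm6 (r = 0.99), Gng13 (0.94) and Trpm1 (0.94), which belong to the ON light response, and Bhlhe23 was most like Isl1 itself (0.93), Gm17634 (0.92) and Grm6 (0.92). Lhx4 was most like Cabp5 (0.92), a calcium-binding protein of bipolar cells, Gm15587 (0.91) and the potassium channel Kcnh6 (0.87).

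Vsx1 and Lhx3 were each other's nearest gene (r = 0.89). The next after Vsx1 were Reln (0.82) and Cabp2 (0.77), and after Lhx3 the cadherin Cdh8 (0.88) and Tnnt1 (0.87). Irx6 was most like A330008L17Rik (0.90), Chrna6 (0.84) and Cdh8 (0.82). For Fezf2 the nearest were Gm45604 (0.88), Cntnap5a (0.88) and Gsg1 (0.86), and for Sebox Gm534 (0.86), Gm35217 (0.86) and Gm30725 (0.82). Bhlhe22 had lower values, with Ulk1 (0.78), Ephb6 (0.77) and the kainate receptor subunit Grik2 (0.77).

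Levels were next set against each other between libraries, for pairs of factor and cluster with at least 50 UMIs over both libraries, with 1 UMI added to each. For vehicle over WT, 7 of 25 pairs passed 1.5-fold, against 11.7% of all 33407 gene and cluster pairs. The 5 higher pairs were all in cluster 10, where 24.0% of all genes passed, and the 2 lower ones were in cluster 3, where 10.7% did (246 genes higher and 499 lower). For TMB over WT, 4 of 26 pairs passed, against 9.92% of all pairs (15.2% in cluster 10 and 10.2% in cluster 3, which held 2 each). For TMB over vehicle 1 of 24 did, against 5.83% of all pairs (12.5% in cluster 10, which held it). The comparisons of vehicle and of TMB over WT share the WT library.

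In cluster 10 all 5 members with enough UMIs were higher in vehicle than in WT. Isl1 was 1.98-fold higher (log2 ratio 0.99, interval 0.80 to 1.17), Vsx1 1.92-fold (0.94, 0.71 to 1.16) and Bhlhe23 1.76-fold (0.81, 0.34 to 1.25). Lhx3 was 2.67-fold higher (1.41, 0.83 to 1.98) on 46 against 63 UMIs in WT, and Irx6 2.72-fold (1.45, 0.79 to 2.07) on 38 against 51. In TMB, Isl1 was 1.72-fold (0.78, 0.61 to 0.95) and Lhx3 2.08-fold (1.05, 0.49 to 1.60) higher than in WT, whereas Irx6 gave 0.02 (−0.85 to 0.75). Weighting each cell equally took Vsx1 (0.58) and Bhlhe23 (0.51) for vehicle and Isl1 (0.58) for TMB under the limit, and thinning did so for Vsx1 for vehicle (0.45, −0.00 to 0.89, on 187 UMIs) and Isl1 for TMB (0.51, 0.16 to 0.85, on 293). With WT limited to the cells that had an Xist UMI but none from the Y chromosome, a proxy for its female mice, the log2 ratio of vehicle over WT was 0.56 for Isl1, which is under the limit, 0.62 for Vsx1, 0.63 for Bhlhe23, 0.71 for Irx6 and 0.98 for Lhx3, and that of TMB over WT was 0.36 for Isl1, also under it, and 0.62 for Lhx3.

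Amacrine genes, as a sum, were lower in both rd10 libraries than in WT. The 11 genes of the amacrine list summed to 1854 CPM in WT cells of cluster 10, 348 in vehicle and 920 in TMB, with Slc18a3 at 0 in WT, Tfap2c, Gad1, Chat and Slc18a3 at 0 in vehicle and Chat at 0 in TMB. In the 99 amacrine-marked WT cells Isl1 was at 49.0 CPM and Otx2 at 12.6, and Tfap2b at 1254, against 1111, 509 and 4.99 in the other WT cells of the cluster.

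Without those cells, cluster 10 read 1111, 1200 and 1230 CPM of Isl1 and 785, 762 and 639 CPM of Vsx1 in WT, vehicle and TMB. The log2 ratio of vehicle over WT was then 0.11 (−0.07 to 0.30) for Isl1, −0.04 (−0.27 to 0.18) for Vsx1 and −0.07 (−0.55 to 0.38) for Bhlhe23. Irx6 gave 0.51 (−0.16 to 1.14). For TMB over WT, Isl1 gave 0.15 (−0.03 to 0.32) and Lhx3 0.49 (−0.08 to 1.06), both no longer past 1.5-fold, and Irx6 gave −0.66 (−1.53 to 0.07), which passed it. Vsx1 changed sign for TMB over WT, from 0.38 (0.15 to 0.60) with all cells to −0.29 (−0.52 to −0.07). Lhx3 was the member past 1.5-fold in this cluster for vehicle, at 0.60 (−0.00 to 1.18) on 142.9 against 94.8 CPM. The share of all genes past 1.5-fold in cluster 10 went from 24.0% to 10.4%.

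Cluster 6 followed the same course below the 1.5-fold limit. Vsx1 was 1.48-fold higher in vehicle and 1.47-fold higher in TMB than in WT, and Isl1 1.35-fold and 1.49-fold. The amacrine list summed to 2506 CPM in WT against 204 and 177 in the rd10 libraries. Without the amacrine-marked cells the log2 ratios of Vsx1 were 0.11 and 0.11, and those of Isl1 0.02 and 0.15, each with an interval that held 0. With WT limited by Xist as above, the log2 ratios of Vsx1 were 0.67 (0.42 to 0.93) and 0.66 (0.41 to 0.92), past the limit, and those of Isl1 0.26 and 0.40.

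**Figure D4:**
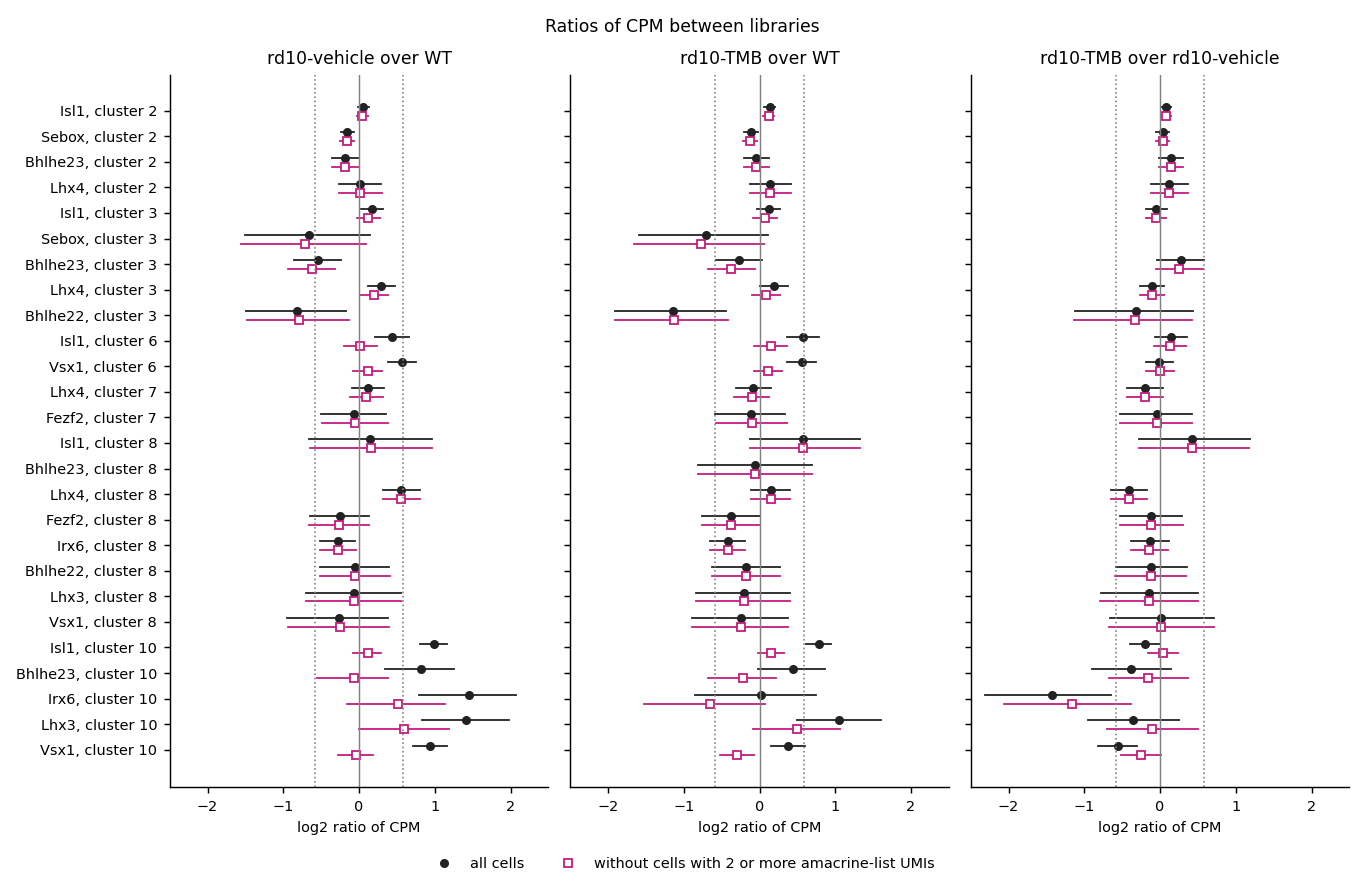
Log2 ratio of CPM (x axis) of each factor and cluster with at least 50 UMIs (y axis) in the 3 comparisons, with exact 95% intervals, for all cells (filled) and without cells with 2 or more amacrine-list UMIs (open). Dotted lines mark 1.5-fold. The ratios of cluster 10 over WT lie between 0.81 and 1.45 for vehicle with all cells, and between −0.07 and 0.60 without those cells.

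In the ON cone bipolar-like cluster 3, Bhlhe22 was lower in both rd10 libraries, at 44.7 CPM in WT on 48 UMIs, 25.2 in vehicle on 36 and 19.9 in TMB on 26. The vehicle ratio was 1.76-fold lower (log2 −0.82, −1.49 to −0.18), and −0.79 without the amacrine-marked cells, but −0.54 (−1.27 to 0.19) when cells above a 10% mitochondrial share were left out, which is under the limit. The TMB ratio was 2.21-fold lower (log2 −1.14, −1.91 to −0.45) and −1.12 without the amacrine-marked cells. Sebox there was 1.59-fold and 1.64-fold lower on 25 and 22 against 30 UMIs, with intervals that held 0, and these calls were lost in 5 and 6 of 9 alternatives, mostly by falling under the minimum of 50 UMIs. Bhlhe23 was 1.46-fold lower in vehicle than in WT (−0.55, −0.86 to −0.24) and passed the limit without the amacrine-marked cells (−0.63, −0.94 to −0.32). With WT limited by Xist it was −0.35 (−0.73 to 0.07). Vsx1, under the minimum count, had 26 UMIs in WT, 5 in vehicle and 19 in TMB, and Fezf2 had 18, 5 and 7. Amacrine-marked cells were 37 of 386 in WT, 7 of 501 in vehicle and 5 of 398 in TMB. Without them Vsx1 had 22, 5 and 19 UMIs and Fezf2 had 11, 5 and 7. With WT limited by Xist as above, the Bhlhe22 ratios were −0.36 (−1.19 to 0.61) and −0.68 (−1.59 to 0.32).

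Between the rd10 libraries, 12.5% of all genes passed 1.5-fold in cluster 10, or 9.40% without the amacrine-marked cells. Irx6 in that cluster was the pair past this limit. It was at 105 CPM in vehicle (74.2 to 144) and 38.2 in TMB (23.3 to 58.9), on 38 and 20 UMIs. It was thus 2.69-fold lower in TMB (log2 −1.43, −2.32 to −0.64). Without the amacrine-marked cells the log2 ratio was −1.17 (−2.06 to −0.38). Below the limit, Vsx1 in cluster 10 was 1.48-fold lower in TMB (log2 −0.56, −0.82 to −0.30), and −0.25 (−0.52 to 0.01) without those cells.

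In the rod bipolar-like cluster all 12 ratios of Isl1, Sebox, Bhlhe23 and Lhx4 lay between −0.18 and 0.14 on the log2 scale. In cluster 8, Lhx4 was 1.47-fold higher in vehicle than in WT (0.56, 0.31 to 0.81) and 1.33-fold lower in TMB than in vehicle (−0.41, −0.65 to −0.17). Irx6 in cluster 8 was 1.22-fold and 1.34-fold lower in vehicle and TMB than in WT, with intervals that left out 0.

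Of 25 other transcription factors of bipolar and inner retinal cells, all in the matrix, 23 of 88 pairs passed 1.5-fold for vehicle over WT (13 higher, 10 lower), 16 of 89 for TMB over WT (7 higher, 9 lower) and 4 of 84 between the rd10 libraries (2 in each direction). Of all gene and cluster pairs, 11.7%, 9.92% and 5.83% passed in the same comparisons. Without the amacrine-marked cells the counts for these factors were 10 of 83, 8 of 85 and 0 of 81. The share of all genes then ran by cluster from 6.48% to 10.4%, from 6.12% to 10.3% and from 4.18% to 9.40%. The medians of the other factors over all pairs and all cells were 0.04, 0.01 and −0.06 on the log2 scale. They were 0.01, 0.01 and −0.00 for all genes and 0.06, −0.01 and −0.11 for the 9 factors.

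The shared regulator Otx2 tracked the pattern of Isl1 and Vsx1 in cluster 10. It was at 240 CPM in WT, 414 in vehicle and 288 in TMB, and its log2 ratio of vehicle over WT was 0.79 (0.50 to 1.07), or −0.13 (−0.43 to 0.15) without the amacrine-marked cells. Other factors were highest in a cluster that a member marked. Irx5, a paralogue of Irx6, was at 282, 236 and 215 CPM in cluster 8 and at 4.60 or less elsewhere, and Prdm8, a repressor needed for rod bipolar cells, was at 530, 546 and 543 CPM in cluster 2 and at 114, 182 and 207 in cluster 6. Nfib was at 614, 454 and 499 CPM in cluster 7 and at 127, 126 and 96.6 in cluster 3.

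Zfhx3 in cluster 7 had the largest ratio of all members and other factors once the amacrine-marked cells were left out. It was at 250 CPM in WT on 126 UMIs, 26.9 in vehicle on 12 and 29.4 in TMB on 11, a log2 ratio of −3.12 (−4.21 to −2.36) for vehicle, or −3.08 without those cells. In cluster 3 Zfhx3 was at 144, 67.2 and 64.4 CPM and its relative Zfhx4 at 161, 59.5 and 59.0. Meis2, Nfix and Neurod2 went the other way in cluster 3, with 242, 93.2 and 73.6 CPM in WT, 425, 173 and 139 in vehicle and 383, 174 and 129 in TMB.

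Other cell types also left reads in these clusters. The 8 rod genes summed to between 494 and 4134 CPM and the 7 Müller glia genes to between 108 and 741 CPM, with the Müller sum higher in both rd10 libraries than in WT in all 6 clusters. The 6 retinal ganglion genes summed to 15.8 CPM or less, and Pou4f2 was at 0 in all but 1 of the 18 cluster and library sums. The part of these reads in the ratios was not tested.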

How the data were processed

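Single-cell RNA-seq was made from 3 pooled retinal libraries (WT, rd10-vehicle, rd10-TMB). Per the submitters' processing notes, Cell Ranger 6.0.1, Seurat 3.2.2 and the mm10 build were used. The authors deposited, for cells with at least 500 genes, the natural log of 1 plus the UMIs per 10000 of each gene, and cell tables with the count of UMIs, the library and the cluster number. Scrublet had been used by the authors to remove doublets, and Harmony to integrate the libraries before clustering. UMI counts were recovered by inverting the log with each cell's total: all 32620606 entries came out whole within 0.001 UMI, and all 15242 cells summed to their total.

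UMIs were summed per cluster and library and given as CPM with exact 95% Poisson intervals. Ratios were called past 1.5-fold among pairs with at least 50 UMIs over both libraries, with 1 UMI added, and have exact conditional intervals. Shares were read after thinning to 1000 UMIs, with exact Clopper-Pearson intervals. All intervals and limits cover counting error only. With 1 library per group no test was run. A cluster was named from markers at 20 CPM or more and 2-fold over the other cells, if at least 3 were found and 1 was among its 10 leading genes. The 9 factors were named in every cluster, with for each the 3 genes most like it. Of the other factors, only some of those past 1.5-fold or leading in a cluster were named. The alternatives changed the scaling, the weighting of cells, the 1 added UMI, the cell filters, the minimum and the limit, and shares without amacrine-marked cells were added after seeing the data. The values of 1 gene are not reported here. Members, lists and alternatives were chosen with earlier results of these data known. Python 3.11.15, numpy 2.4.6, scipy 1.17.1 and pandas 2.3.3 were used, and the code was tested on simulated data.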

Additional observations from a re-analysis of the deposited data

Results flagged for a closer look

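A signal of the same factors appeared in cluster 11, outside the bipolar clusters. Of its 393 cells, 51 had a UMI of Otx2 and none of Cldn5, a tight junction gene of endothelial cells. These cells, a selection made after the data were seen, held 116 Vsx1, 113 Bhlhe22, 65 Irx6, 63 Lhx3 and 60 Lhx4 UMIs, or 381, 371, 213, 207 and 197 CPM, with 6 Isl1 and no Sebox UMIs. They also held Scgn at 1066 CPM, Trpm1 at 761 and Grik1 at 292, with no Erbb4 UMI. Otx2 and Cldn5 were used to choose them and are no finding.

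The WT library gave 40 of the 51 cells, the rd10-vehicle library 5 and the rd10-TMB library 6, which is 0.893% of WT cells (exact interval 0.639 to 1.21), 0.0840% of rd10-vehicle cells (0.0273 to 0.196) and 0.125% of rd10-TMB cells (0.0458 to 0.271). The 97 other WT cells of cluster 11 had 17 Vsx1 UMIs, in 5 cells, and 3522 CPM of Cldn5. Across the cluster, cells with Vsx1 and no Isl1 numbered 35 of 137 in WT, 5 of 156 in rd10-vehicle and 4 of 100 in rd10-TMB. Whether the libraries differ in this set was not tested, and group and library cannot be told apart.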

How the results depend on the processing

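No paired analysis was possible because each group was 1 library. Low counts limit the smaller clusters: a pair at the minimum of 50 UMIs has an interval wider than the 1.5-fold limit, and differences below that limit were not resolved for such pairs. Of 726 single ratios recomputed, 680 stayed within 1 counting interval, 44 moved further and 2 of those past 1.5-fold changed sign. These were Vsx1 and Bhlhe23 in cluster 10 for rd10-vehicle over WT, at -0.040 and -0.067 without the amacrine-marked cells. Of all ratios, below the limit or past it, 49 changed sign, 5 of them from an interval that left out 0, and 1 of these 5 to an interval that left out 0 on the other side, which was Vsx1 in cluster 10 for rd10-TMB over WT, at -0.29 without those cells. Of 100 shares, 98 moved when read without thinning or at 2000 UMIs, as more UMIs per cell give higher shares, and 5 of 12 did without the amacrine-marked cells, a setting chosen after seeing the data.

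The 7 pairs past 1.5-fold for rd10-vehicle over WT were 4 with the mean over cells, 4 without the amacrine-marked cells, 2 with thinned cells, 13 with a minimum of 20 UMIs, 18 with none and 2 at a 2-fold limit. The 4 pairs for rd10-TMB over WT were 2 with the mean over cells, 2 with thinned cells, 2 with WT cells limited by Xist, 9 with a minimum of 20 UMIs, 15 with none and 2 at a 2-fold limit. The 1 pair between the rd10 libraries was 2 in cells with at least 1000 genes, 2 without the 5% of cells with the most UMIs, 3 with a mitochondrial share of 10% or less, 0 with thinned cells, 3 with a minimum of 20 UMIs and 7 with none. A lower minimum or a higher limit changes a count by construction. The share of all genes past the limit changes with the setting too. Without the amacrine-marked cells it ran by cluster from 6.48% to 10.4% for rd10-vehicle over WT, against 6.59% to 24.0% with all cells. The other settings have no such share beside them here, so their counts are no result about the factors. These counts need not hold the same pairs: with thinned cells 1 of the 2 for rd10-vehicle over WT was among the 7 (Isl1 in cluster 10) and none of the 2 for rd10-TMB over WT was among the 4 (Fezf2 in cluster 8 and Isl1 in cluster 6 in their place, with Isl1 in cluster 10 at 0.51), and with WT cells limited by Xist 1 of the 2 was. Thinning took pairs under the minimum of 50 UMIs: Irx6 in cluster 10 was at -1.07 between the rd10 libraries on 15 UMIs and at 1.32 for rd10-vehicle over WT on 19, Lhx3 there at 0.89 on 27 and 0.80 on 28 over WT, and Bhlhe22 in cluster 3 at -1.17 on 27 and -1.68 on 22. Thinning also took Bhlhe23 in cluster 10 for rd10-vehicle over WT under that minimum. Sebox in cluster 3 fell under it too, for both rd10 libraries over WT. The cause of the other moves was not tested. Other scalings and 0.1 in place of 1 added UMI left each count within 1.5 times.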
